A study of Rattus norvegicus with 6 samples.

Results

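The mitotic cell cycle genes described here are 40 genes whose products drive, time or carry out the separation of chromosomes and the division of the cell. They were measured in lung tissue of 6 rats of the inbred Lewis strain, with 1 single-colour array per animal. The silica group held 3 rats that inhaled aerosolised Min-U-Sil 5 silica at 6.2 mg/m3 during 6 hours of each exposure day, on 5 days per week and over 6 weeks, and the control group held 3 rats that inhaled filtered air. The sources used here give neither the ages of the animals nor the interval between the end of exposure and tissue collection. The members were chosen by name with earlier results of these data known, so counts and medians describe the list and do not test it. Each was represented by its brightest probe set among those annotated to that gene and to no other. By this rule 36 of the 40 genes had values, among 14217 named genes on the arrays. For Ndc80, Kif4a and Tpx2 no such probe set was in the annotation used here, and the probe set of Ckap2 also carried the name of a pseudogene, so these 4 genes were not analysed. Of the measured genes, 24 had 1 probe set and 12 had several, 52 in all.

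Entry into mitosis is driven by the kinase Cdk1 bound to cyclins of the A and B types, and Polo-like and Aurora kinases then build the spindle on which chromosomes line up. The spindle checkpoint holds cells in metaphase until every kinetochore is attached, after which Cdc20 activates the anaphase-promoting complex and the cyclins are destroyed. Transcripts of these genes accumulate late in the cell cycle and are low in resting cells, where the DREAM complex represses many of them through a promoter motif named the cell cycle genes homology region (CHR). The MuvB complex with B-Myb and FoxM1 activates through the same motif, and the factor NF-Y binds CCAAT boxes beside it. Most cells of an adult lung are at rest, and macrophages, lymphocytes, epithelial progenitors, endothelium and fibroblasts can all divide there, so in whole lung RNA more dividing cells and more RNA per dividing cell cannot be told apart.

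The promoters of 5 members are shown because the members moved together and because both motifs can be read in most of them. They are Mki67, Cdc20, Melk and Ect2, the 4 genes with the smallest p among the members that rose and have an entry in the promoter table, and Kif23, whose brightest probe set did not differ between the groups beyond their spread. The windows run from 250 bases before to 30 bases after the annotated gene start in RefSeq (build GRCr8) and lie at chr1:199952564-199952843 (minus strand), chr5:137255770-137256049 (minus strand), chr5:63335901-63336180 (plus strand), chr2:111966597-111966876 (minus strand) and chr8:71320555-71320834 (minus strand). Sequences are written 5′ to 3′ on the strand of the gene, and capitals mark every CHR match (TTTGAA or TTCGAA, both strands) and every CCAAT match (both strands). In Mki67, 1 CHR match and a reversed CCAAT match share a letter and are capitalised as 1 run.
Mki67: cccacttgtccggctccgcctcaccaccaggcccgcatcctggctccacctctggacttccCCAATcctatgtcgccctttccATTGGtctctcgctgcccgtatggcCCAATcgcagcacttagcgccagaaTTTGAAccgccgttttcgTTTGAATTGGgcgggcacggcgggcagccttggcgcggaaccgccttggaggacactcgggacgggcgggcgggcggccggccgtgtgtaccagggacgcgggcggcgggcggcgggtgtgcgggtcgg
Cdc20: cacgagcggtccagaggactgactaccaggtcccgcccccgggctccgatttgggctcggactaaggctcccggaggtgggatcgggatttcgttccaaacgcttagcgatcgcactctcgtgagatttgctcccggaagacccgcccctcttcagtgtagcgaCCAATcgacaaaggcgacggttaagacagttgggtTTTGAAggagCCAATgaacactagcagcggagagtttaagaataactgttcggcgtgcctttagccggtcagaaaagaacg
Melk: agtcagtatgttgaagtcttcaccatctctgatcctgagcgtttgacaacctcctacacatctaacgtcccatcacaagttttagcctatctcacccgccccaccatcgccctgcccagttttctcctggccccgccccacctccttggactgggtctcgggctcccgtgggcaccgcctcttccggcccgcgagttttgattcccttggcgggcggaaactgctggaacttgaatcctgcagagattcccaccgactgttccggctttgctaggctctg
Ect2: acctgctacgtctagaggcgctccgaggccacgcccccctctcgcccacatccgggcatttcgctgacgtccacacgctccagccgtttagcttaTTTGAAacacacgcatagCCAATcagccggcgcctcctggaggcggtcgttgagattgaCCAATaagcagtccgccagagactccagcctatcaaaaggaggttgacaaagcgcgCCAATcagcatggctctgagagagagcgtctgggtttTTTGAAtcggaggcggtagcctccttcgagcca
Kif23: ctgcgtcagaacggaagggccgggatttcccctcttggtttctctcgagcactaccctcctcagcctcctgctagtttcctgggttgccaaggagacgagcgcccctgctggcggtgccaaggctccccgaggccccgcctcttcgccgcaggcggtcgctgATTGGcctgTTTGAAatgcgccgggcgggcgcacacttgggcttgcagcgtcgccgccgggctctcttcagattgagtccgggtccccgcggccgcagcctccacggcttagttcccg

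Among the 33 members with an entry in this table, 21 (63.6%) held a CHR match in the 280-base window, against 18.6% of all 27457 promoters in the table and 13.3% of the 11733 promoters of genes measured on the arrays. Close to the start, from 100 bases before it to 30 after it, 19 members (57.6%) held one, against 7.64% of all promoters and 4.88% of those of measured genes. In those 19 genes the match nearest to the start began between position -99 and position 10, with a median of -19, where negative positions lie before the start. A CCAAT match was present in 24 members (72.7%) and at least 2 were present in 18 (54.5%), against 36.5% and 10.8% of all promoters. No CHR match (TTTGAA or TTCGAA) and no CCAAT match was found in the windows of 7 members, among them Melk, Bub1 and Aurka. Other spellings of the CHR were not searched. Of the members that rose in silica lungs, 5 of 10 with an entry held a CHR match close to the start, and of the other measured members 13 of 20 did, a difference that was not tested. Kif23 carried 1 match to each motif, at positions -79 and -88. The same close match was present in 33 of 56 promoters of other mitotic genes (58.9%), in 5 of 10 of genes of the DREAM and MuvB complexes (50%) and in 3 of 9 of regulators of the Cdk1 switch (33.3%). It was present in 3 of 30 promoters of DNA replication genes (10%) and in 0 of 12 of subunits of the anaphase-promoting complex. A match describes letters in these windows and not binding.

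**Figure D1:**
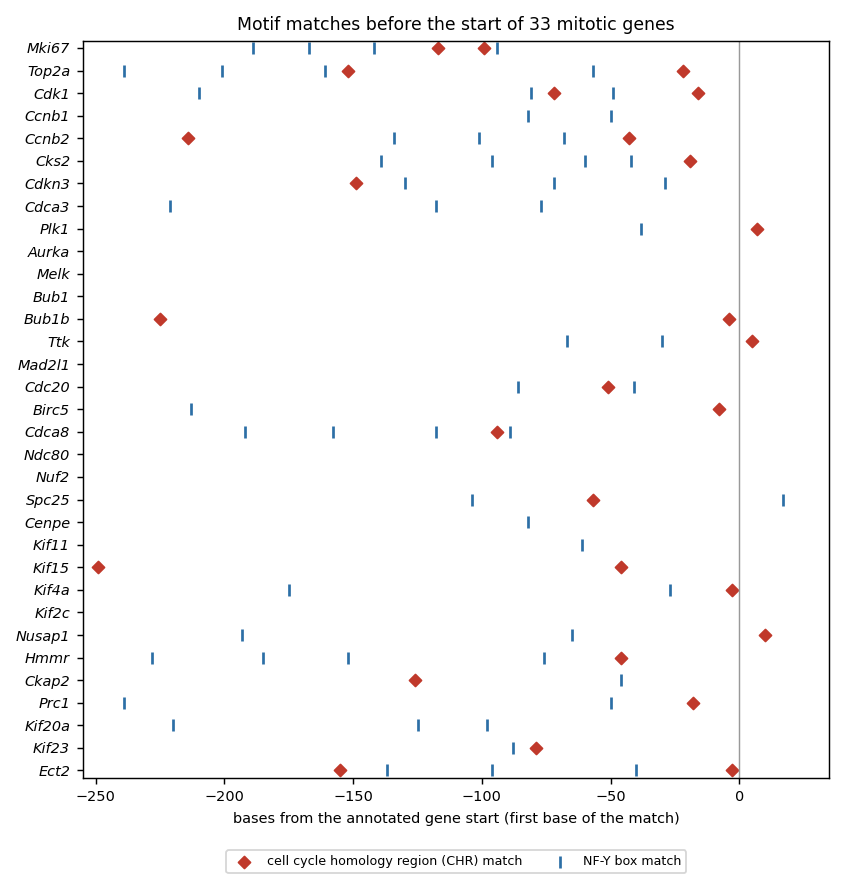
Positions of CHR matches (diamonds) and of CCAAT matches, the NF-Y box (bars), in the promoter windows of 33 mitotic genes, with the annotated gene start at 0 on the horizontal axis and negative positions before it. The CHR matches gather close to the start, within 100 bases before it in most genes that hold one.

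The comparison of silica with control lungs asked how far these genes differed after chronic exposure. Mitotic genes were higher in silica lungs almost throughout: 13 of 36 passed in the upward direction (limma, adjusted p under 0.05) and 0 in the downward one, while 1.55% of all 14217 genes rose and 0.12% fell. Over all 31042 probe sets, 0.934% rose and 0.145% fell, 1.08% in all. All 3 silica arrays lay above all 3 control arrays for 34 of the 36 genes, against 18.7% of all genes. The median log2 fold change (silica minus control) was 1.04, a 2.05-fold difference, against 0.02 over all genes, and 20 members reached a log2 fold change of 1, against 1.7% of all genes. At an unadjusted p under 0.05, 33 members were higher and 0 lower, against 12.6% and 7.24% of all genes. The calls on single members needed all 6 arrays: without any 1 of them 0 members passed by limma, with 30 to 34 higher at an unadjusted p under 0.05, while the median stayed between 0.97 and 1.10. The share of all probe sets that rose was then 0.0387% without silica replicate 1, 0.00966% without silica replicate 2, 0.00322% without control replicate 2 and 0% without any other array. Other settings gave 26 members beside 3.68% of probe sets with an intensity trend and robust spread, 26 beside 2.28% with pseudocount 64, and 2 beside 0.126% with pseudocount 1. The mean of all probe sets gave 22 beside 3.14% of genes, and leaving out the dimmer 50% gave 14 of 17 beside 6.73%. Array weights gave 12 beside 0.937%, quantile normalization 12 beside 0.889%, median centring 12 beside 0.812%, and a replicate block 0 beside 0.00322%. Log2 values are log2(signal + 16), and fold changes on this scale understate the change of dim genes.

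**Figure D2:**
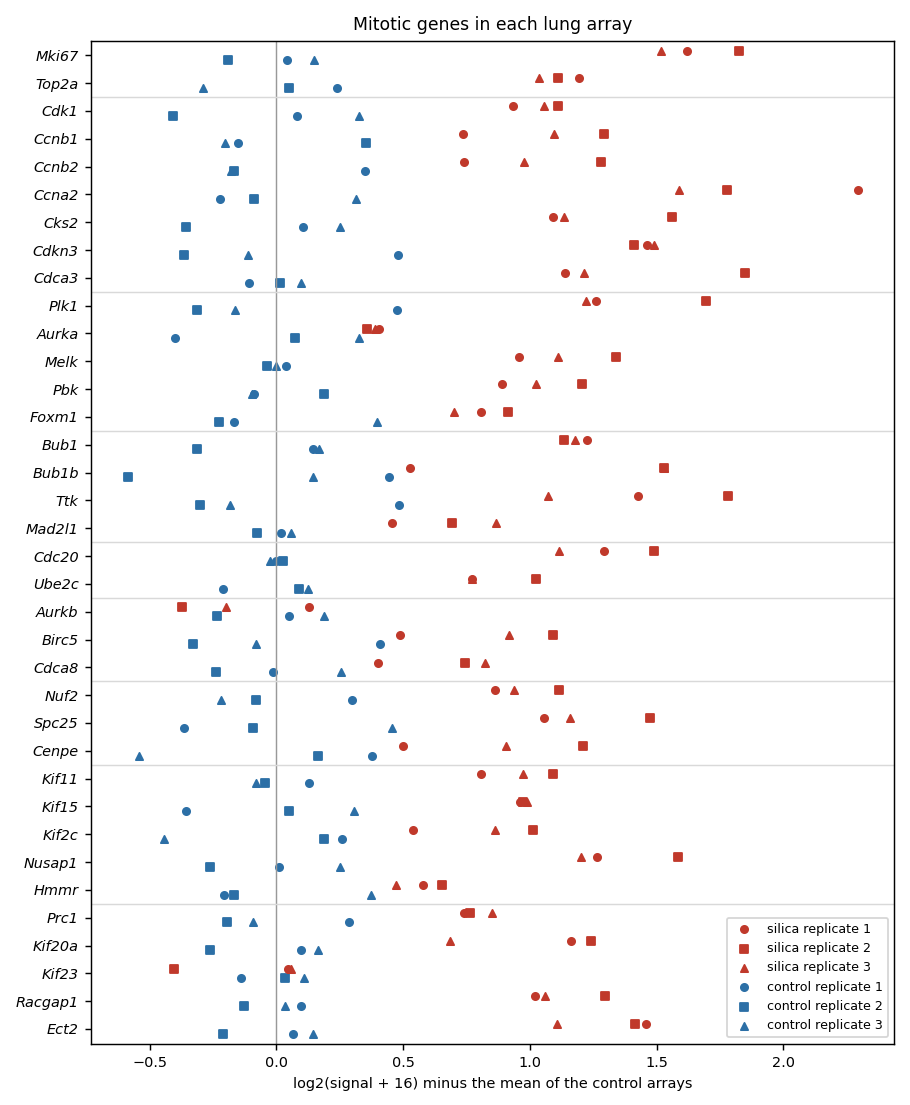
Each measured member in each array, as log2(signal + 16) minus the mean of the 3 control arrays (horizontal axis), with genes grouped by role (grey lines) and 1 symbol per animal. The silica arrays lie to the right of all control arrays in 34 genes, and Aurkb and Kif23 are the exceptions.

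Array facts that bear on all members are few. Every array had the same trimmed mean signal, and array medians lay between 7.38 and 7.42 on the log2 scale. The 8 alveolar type 2 cell markers, which define this tissue, were bright in every array, with summed signals of 116535 to 136356 in silica and 125529 to 130553 in control. The log2 ratio of 3-prime to 5-prime signal of beta-actin and GAPDH, which rises as RNA degrades, was 1.67, 1.50 and 1.15 in silica replicates 1 to 3. It was 1.23, 1.20 and 0.996 in control replicates 1 to 3. Silica replicates 1 and 2 thus lay above every control, and silica replicate 3 lay among the controls. With this ratio in the limma fit the median of the members was 1.07, 31 were higher at an unadjusted p under 0.05, and 0 passed after adjustment.

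Chromosome-associated genes both rose. Mki67, which encodes the Ki-67 protein that coats mitotic chromosomes and marks cycling cells, had signals of 526, 609.4 and 488.7 in silica and 165.4, 138.6 and 179.6 in control. The lowest silica animal was far above the highest control animal. Its log2 fold change was 1.65 ± 0.14 (SE; limma adjusted p = 0.0181), the smallest p of any member. Top2a, the topoisomerase that untangles sister DNA before anaphase, had 322.3, 303.3 and 286.9 in silica and 158.5, 137.1 and 104.9 in control. Its log2 fold change was 1.11 ± 0.16 (adjusted p = 0.0448), and a further Top2a probe set also rose, by 1.35.

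Among Cdk1, its cyclins and their partners, 3 of 7 rose and all 7 were higher in every silica animal than in any control. Ccna2, cyclin A2, which acts in S phase and early mitosis, had the largest fold change of all members at the pseudocount of 16, while at a pseudocount of 64 Mki67 exceeded it (1.43 against 1.32 on the log2 scale). Its signals were 280.6, 191.4 and 165.7 in silica and 35.8, 40.9 and 59.1 in control, 1.89 ± 0.23 apart on the log2 scale (adjusted p = 0.0388). Silica replicate 1 stood highest here, whereas silica replicate 2 was highest in most other members. Cdkn3, a phosphatase that acts on Cdk1 and Cdk2, had 301.4, 290.6 and 307.8 in silica and 144.6, 73.6 and 90.6 in control. The silica animals were tightly grouped and the controls spread more widely (log2 fold change 1.45 ± 0.22, adjusted p = 0.0484). Cdca3, an adaptor of a ubiquitin ligase that promotes mitotic entry, had 285.3, 477.5 and 301.2 in silica and 111.1, 122.1 and 130.4 in control (log2 fold change 1.40 ± 0.21, adjusted p = 0.0468).

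The central kinase did not pass the test, although its groups did not overlap. Cdk1 had 285.2, 324.3 and 311.9 in silica and 150.9, 102.8 and 181.6 in control, so that the log2 fold change was 1.03 ± 0.20 (adjusted p = 0.0838). The spread among control animals was wider than that among silica animals. Ccnb1 and Ccnb2, the B-type cyclins that form the mitosis-promoting kinase with Cdk1, differed by 1.04 ± 0.21 and 1.00 ± 0.21 on the log2 scale (adjusted p = 0.0929 and 0.0967), and a further Ccnb1 probe set had 1.37. Cks2, a small subunit of that kinase, had 490 ± 95.4 in silica and 196 ± 44.0 in control (SD, n = 3 each; log2 fold change 1.26 ± 0.21, adjusted p = 0.0606).

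Of the mitotic kinases and their transcription factor, 2 of 5 rose. Melk, a kinase of cycling and progenitor cells, had 109.8, 147.9 and 124.1 in silica and 50.6, 47.2 and 48.8 in control (log2 fold change 1.13 ± 0.13, adjusted p = 0.0313). Pbk, a mitotic kinase also known as TOPK, had 69.6, 90.5 and 78 in silica and 27.4, 36.6 and 27.2 in control (log2 fold change 1.04 ± 0.14, adjusted p = 0.0411). In both genes the control animals were far below the silica animals. The controls were close together in Melk, while in Pbk the SD on the log2 scale was 0.16 in each group. Plk1, the Polo-like kinase of centrosome maturation and mitotic entry, had a larger fold change that did not pass. Its signals were 168.7, 233.1 and 163.4 in silica and 91.2, 46 and 52.8 in control, 1.39 ± 0.25 apart on the log2 scale (adjusted p = 0.0710). Foxm1, the transcription factor that activates late cell cycle genes, had 123 ± 10.2 in silica and 64.8 ± 20.3 in control (SD, n = 3 each; log2 fold change 0.81 ± 0.19, adjusted p = 0.122). A dim further Foxm1 probe set had 0.50, and neither passed.

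Neither Aurora kinase passed. Aurka, which acts at spindle poles, had 214.9, 207.1 and 211.9 in silica and 116, 167.5 and 202.6 in control. The highest control reached almost the lowest silica value, and the log2 fold change was 0.38 ± 0.19 (95% confidence interval -0.08 to 0.85, adjusted p = 0.366). Aurkb, the kinase of the chromosomal passenger complex, had 1299, 911.7 and 1031 in silica and 1228.4, 1004.7 and 1351.8 in control. These groups overlapped throughout. The log2 fold change was -0.15 ± 0.18 (95% confidence interval -0.58 to 0.28, adjusted p = 0.711), so the interval lay below the median of the members. Aurkb had 1 probe set, by far the brightest of the members. Its mean control signal was 1195, and the next highest was 274, for Prc1.

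The 2 other members in the chromosomal passenger complex, which corrects faulty chromosome attachments, were higher in all silica animals than in any control. Birc5, survivin, had 82.6, 133.8 and 117 in silica and 77.4, 40.1 and 50.6 in control (log2 fold change 0.83 ± 0.24, adjusted p = 0.175). Cdca8, borealin, had 94, 123.4 and 131.4 in silica and 66.4, 54.6 and 83.2 in control (log2 fold change 0.66 ± 0.18, adjusted p = 0.153). In both genes silica replicate 1 was the lowest silica animal and stood just above the highest control. Of the 3 members in this complex 0 passed. At an unadjusted p under 0.05 by limma 2 of them were higher, against 12.6% of all genes.

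In the spindle checkpoint 1 of 4 genes rose. Bub1, a kinase that recruits checkpoint proteins to kinetochores, had 188.1, 175.8 and 181.9 in silica and 80.6, 54.3 and 82.2 in control (log2 fold change 1.18 ± 0.15, adjusted p = 0.0411). The silica animals differed little among themselves. Its relative Bub1b, which helps to inhibit Cdc20, had 62.8, 141.8 and 141.6 in silica and 58.3, 20.4 and 44.4 in control. Silica replicate 1 lay close to control replicate 1 there, and the standard error was the widest of all members (log2 fold change 1.19 ± 0.37, adjusted p = 0.193). Ttk, the Mps1 kinase that starts checkpoint signalling, had 90.8 ± 26.1 in silica and 24.1 ± 12.5 in control (SD, n = 3 each; log2 fold change 1.43 ± 0.27, adjusted p = 0.0814), and it was dim in control. A dimmer Ttk probe set had a log2 fold change of 0.18 with overlapping groups, and the mean of both had 0.80. Mad2l1, which binds Cdc20 at unattached kinetochores, differed by 0.67 ± 0.13 on the log2 scale (adjusted p = 0.0889), with 0.29 and 0.43 in 2 dimmer probe sets.

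At the exit from mitosis 1 of 2 genes rose. Cdc20, the activator of the anaphase-promoting complex, had 274.2, 316.1 and 240.6 in silica and 102.3, 104.5 and 100.3 in control (log2 fold change 1.30 ± 0.12, adjusted p = 0.0252). Control animals were almost equal. Of 4 further Cdc20 probe sets, all dimmer, 2 had non-overlapping groups, and none passed. Ube2c, the ubiquitin-conjugating enzyme of the same complex, had 232.2, 279.9 and 232.5 in silica and 109.8, 138.5 and 142.4 in control (log2 fold change 0.86 ± 0.14, adjusted p = 0.0584). Its groups did not overlap.

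None of the 3 measured kinetochore genes passed. All 3 were higher at an unadjusted p under 0.05 by limma, against 12.6% of all genes. Nuf2 and Spc25 are subunits of the Ndc80 complex, which grips microtubule ends. Nuf2 had 214.2, 258.4 and 226.2 in silica and 139.6, 103.7 and 92.9 in control (log2 fold change 0.97 ± 0.16, adjusted p = 0.0626). Spc25 had 161.6, 221.8 and 175.1 in silica and 50.5, 64.3 and 101.3 in control (log2 fold change 1.23 ± 0.24, adjusted p = 0.0835). Both separated the groups fully. Cenpe, the kinetochore motor that carries chromosomes to the metaphase plate, was the dimmest member, with 47.3 ± 15.2 in silica and 19.1 ± 10.7 in control (SD, n = 3 each; log2 fold change 0.87 ± 0.29, adjusted p = 0.215).

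Among spindle motors and assembly factors 2 of 5 measured genes rose. Kif11, the motor that pushes the spindle poles apart, had 162.4, 201.6 and 184.2 in silica and 95.4, 82.9 and 80.5 in control (log2 fold change 0.96 ± 0.12, adjusted p = 0.0399). A dimmer Kif11 probe set had 0.85 with overlapping groups and did not pass, and the mean of both missed the threshold (0.90, adjusted p = 0.0769). Nusap1, which bundles spindle microtubules around chromosomes, had 306.6, 386.4 and 293.1 in silica and 119.3, 95.9 and 143.8 in control (log2 fold change 1.35 ± 0.18, adjusted p = 0.0405). A dimmer Nusap1 probe set had 0.84, also with groups apart. Kif15, a motor that cooperates with Kif11, had 148.4, 149.7 and 151.5 in silica and 50, 71.5 and 88.5 in control (log2 fold change 0.97 ± 0.18, adjusted p = 0.0770). The silica animals were nearly identical, and the spread lay among the controls. Hmmr, a spindle protein that is also a hyaluronan receptor, differed by 0.57 ± 0.18 on the log2 scale (adjusted p = 0.194), and its further probe set had 0.67. Kif2c, a motor that depolymerises microtubules at centromeres, had 0.80 ± 0.23 (adjusted p = 0.168).

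In the central spindle and cytokinesis group 2 of 5 genes rose, and both act on the small GTPase RhoA at the division plane. Ect2, the exchange factor that activates RhoA, had 298.2, 288.9 and 230.2 in silica and 103.6, 83 and 110.6 in control (log2 fold change 1.33 ± 0.15, adjusted p = 0.0330). Racgap1, which recruits Ect2 as part of the centralspindlin complex, had 319.3, 390.7 and 329.1 in silica and 160.8, 135.4 and 153.4 in control (log2 fold change 1.13 ± 0.12, adjusted p = 0.0313). A second, dimmer Racgap1 probe set rose too, with 85.6, 82.7 and 97.8 in silica and 30.2, 29.8 and 31.9 in control (log2 fold change 1.16 ± 0.10, adjusted p = 0.0202). Kif23, the motor subunit that forms centralspindlin with Racgap1, did not pass. It had 196.5, 139.7 and 198.2 in silica and 170.9, 195 and 205.9 in control (log2 fold change -0.10 ± 0.16, 95% confidence interval -0.49 to 0.29, adjusted p = 0.787). The 2 groups overlapped, and a dim further Kif23 probe set had 0.24. Prc1, which cross-links the microtubules of the central spindle, had 462.4, 470.3 and 500.6 in silica and 333.3, 234.7 and 253.2 in control (log2 fold change 0.78 ± 0.15, adjusted p = 0.0812). Kif20a, a motor that brings passenger proteins to the central spindle, differed by 1.03 ± 0.20 on the log2 scale (adjusted p = 0.0814).

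**Figure D3:**
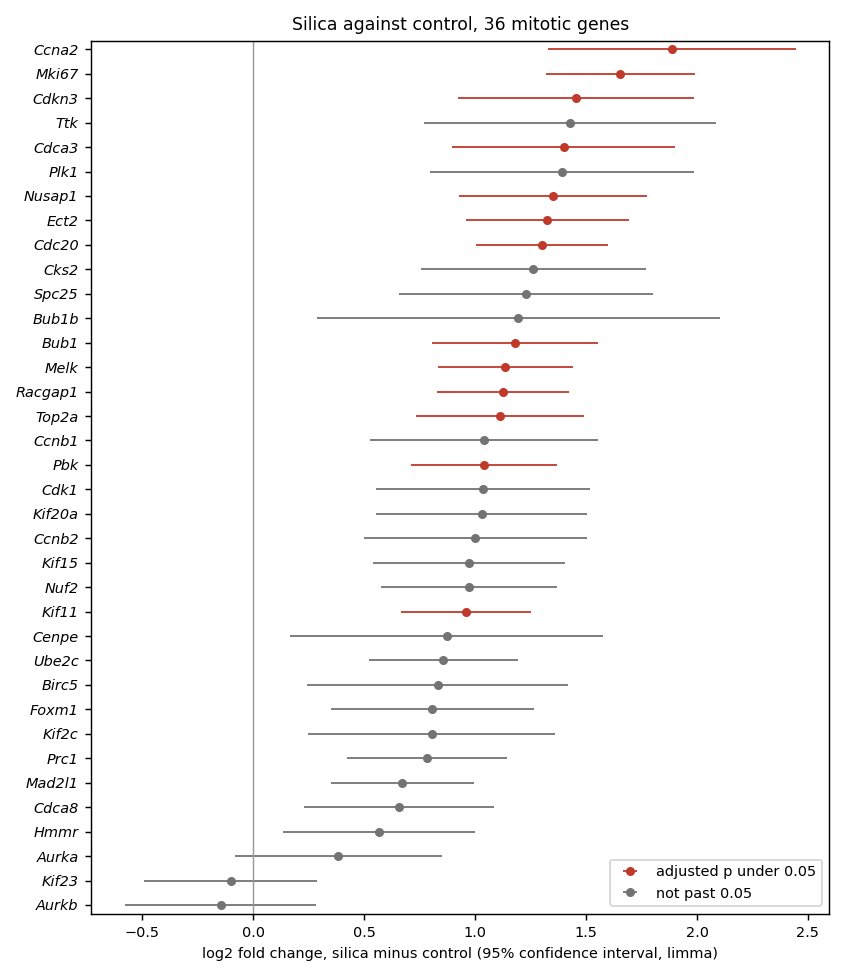
Log2 fold changes (silica minus control) of the 36 measured members with 95% confidence intervals from limma, in order of size, with the 13 genes past an adjusted p of 0.05 in red. Values run from 1.89 for Ccna2 to -0.15 for Aurkb, and the intervals of Aurka, Kif23 and Aurkb include 0.

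The further probe sets mostly shared the direction of the brightest ones. Of 16 further probe sets, 14 had the same sign, 8 had all silica arrays above all control arrays, and 2 rose (those of Top2a and Racgap1). Over all probe sets 0.934% rose, and 18.7% of all genes by the brightest probe set had all silica arrays above all control arrays. The 2 with the opposite sign were those of Kif23 and Kif2c. The dim Kif2c probe set had 5.8, 50.2 and 6.6 in silica and 37.4, 38.7 and 37 in control (log2 fold change -0.75 ± 0.43, adjusted p = 0.427), so silica replicates 1 and 3 lay far below silica replicate 2. Averaged over both probe sets, Kif2c had a log2 fold change of 0.03.

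Animals within a group also differed in the median of the members. Relative to the control mean, the median of the members was 0.91, 1.21 and 1.03 on the log2 scale in silica replicates 1 to 3, and 0.06, -0.15 and 0.10 in control replicates 1 to 3. The median of all genes was 0.039, 0.018 and 0.022 in silica replicates 1 to 3, and 0.006, 0.005 and -0.011 in control replicates 1 to 3. Silica replicate 2 was the highest silica animal in 24 of 36 members and silica replicate 1 the lowest in 20. Control replicate 2 was the lowest control in 19 members and control replicate 3 the highest in 19. How often each array was highest or lowest over all genes was not computed. The SD between animals on the log2 scale had a median of 0.20 in silica and 0.27 in control over the members. It was 0.15 and 0.12 over all genes by the brightest probe set, and 0.19 and 0.16 over all probe sets. Against all probe sets the members were thus more variable mainly in control. They were not matched to genes of like brightness, and the part of brightness in this spread was not tested.

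Other genes of the cell cycle were taken from lists chosen for their role. Of all genes, 1.55% rose, 0.12% fell and 18.7% had all silica arrays above all control arrays. Of 54 measured further mitotic genes 8 rose and 0 fell, with a median log2 fold change of 0.61 and all silica arrays above all control arrays in 36. The 3 with the smallest p were Trip13, a remodeller of checkpoint proteins (log2 fold change 1.20 ± 0.13, adjusted p = 0.0307), Pttg1, the securin that holds back separase (1.41 ± 0.15, adjusted p = 0.0307), and Ncaph, a condensin subunit (1.12 ± 0.13, adjusted p = 0.0317). Cenpf, a large kinetochore protein, had 0.32 ± 0.12 (adjusted p = 0.241), and Cenpa, the centromeric histone, had 0.53 ± 0.36 (adjusted p = 0.507) and was dim in both groups.

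Of 32 DNA replication genes 3 rose and 0 fell, with a median log2 fold change of 0.50 and groups apart, silica above, in 23. These were Cdc45, a subunit of the replicative helicase (1.08 ± 0.13, adjusted p = 0.0399), and the helicase subunits Mcm6 (0.77 ± 0.10, adjusted p = 0.0411) and Mcm3 (0.89 ± 0.13, adjusted p = 0.0458). Mcm2 had 0.67 ± 0.12 (adjusted p = 0.0716), and Pcna, the sliding clamp, had 0.25 ± 0.11 (adjusted p = 0.299). The difference in median between replication genes and mitotic genes was not tested.

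Complexes and regulators that act on the members had medians nearer to 0. At an unadjusted p under 0.05 by limma, 12.6% of all genes were higher and 7.24% lower. Of 15 subunits of the anaphase-promoting complex 0 passed by limma (1 higher and 0 lower at an unadjusted p under 0.05), with a median log2 fold change of 0.06. Its smallest p was that of Anapc15 (0.49 ± 0.15, adjusted p = 0.197), followed by Cdc26 (-0.32 ± 0.18, adjusted p = 0.425) and Anapc7 (0.16 ± 0.09, adjusted p = 0.440). Of 11 genes of the DREAM and MuvB complexes 0 passed (3 higher and 1 lower unadjusted), with a median of 0.06. Mybl2, the B-Myb activator of late cell cycle promoters, had 70, 102.7 and 65.3 in silica and 47.3, 38.4 and 40.8 in control (log2 fold change 0.70 ± 0.17, adjusted p = 0.133). Its groups did not overlap. Lin52, a MuvB subunit, had 0.37 ± 0.10 (adjusted p = 0.149), and Tfdp2, a partner of E2F factors, had -0.48 ± 0.10 (adjusted p = 0.105). Of 11 regulators of the Cdk1 switch 0 passed (1 higher and 2 lower unadjusted), with a median of -0.15. Arpp19, an inhibitor of the phosphatase that opposes Cdk1, had -0.46 ± 0.15 (adjusted p = 0.211), and Cdk7, the kinase that activates Cdk1, had -0.32 ± 0.13 (adjusted p = 0.276). Pkmyt1, which inhibits Cdk1 by phosphorylation, had 157.8, 170.8 and 118 in silica and 55.2, 40.6 and 69.1 in control (log2 fold change 1.22 ± 0.20, adjusted p = 0.0598). Wee1, the other inhibitory kinase, had 0.21 ± 0.20 (adjusted p = 0.636), and Cdc25b, a phosphatase that activates Cdk1, had -0.35 ± 0.18 (adjusted p = 0.366).

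**Figure D4:**
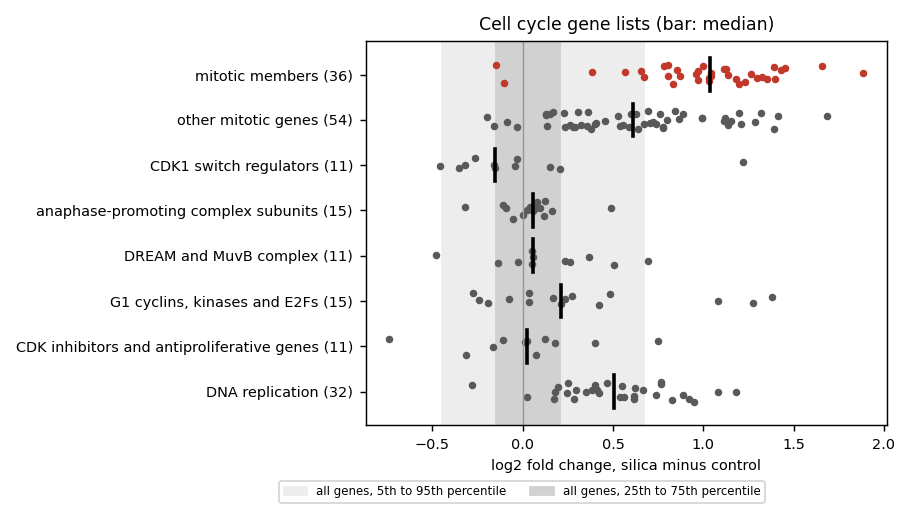
Log2 fold changes (silica minus control, horizontal axis) of the members and of 7 lists of other cell cycle genes, 1 point per gene with the number measured in brackets and a bar at the median, over the spread of all genes in grey. The medians are 1.04 for the members, 0.61 for other mitotic genes and 0.50 for DNA replication, and the other 5 lie between -0.15 and 0.21.

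Summed signals of immune cell markers were higher in silica lungs, as those of most mitotic genes were. Over all genes, all silica arrays lay above all control arrays for 18.7% and below them for 12.7%. At an unadjusted p under 0.05 by limma, 7.24% of all genes were lower. T and NK cell markers rose by limma in 8 of 14 cases, while 1.55% of all genes rose. Their summed signals were 11218 to 13117 in silica and 5700 to 5973 in control. Zap70 (adjusted p = 0.0255) and Cd247 (adjusted p = 0.0307), both parts of T cell receptor signalling, led the list. Macrophage markers rose in 3 of 8 cases, and the groups were apart, silica above, in 4. Their summed signals were 21097 to 23748 in silica and 13503 to 14012 in control. Chi3l1 (adjusted p = 0.0248) alone had 5496.3 to 6964.9 in silica and 1776.3 to 2248.1 in control. The lysosomal protein Cd68 (adjusted p = 0.0431) had 4685.4 to 5857.4 in silica and 2669.4 to 2905.9 in control, so these bright genes made up much of the sum. Neutrophil markers rose in 2 of 6 cases, and the groups were apart, silica above, in 4. Their summed signals were 26564 to 38872 in silica and 10666 to 12083 in control. Most of the silica sum came from Lcn2 (adjusted p = 0.0134), with 17082.2 to 22700.7 in silica and 4745.7 to 5351.7 in control. Mast cell markers rose in 2 of 7 cases (led by Mcpt1, adjusted p = 0.0298), with summed signals of 2079 to 2681 in silica and 1337 to 1509.9 in control. In the mast cell list 1 marker was lower in all silica arrays than in all control arrays and at an unadjusted p under 0.05 by limma, although it did not pass after adjustment. B and plasma cell markers had 4358 to 6072 in silica and 2890 to 3775 in control. Of these markers 0 of 6 passed by limma (4 higher unadjusted, against 12.6% of all genes). No marker gene of these lists was listed at 0, and the markers not analysed here included Marco, Msr1, Siglec1, Cd79a, Pax5, Mpo, Elane and Mcpt2. The part of any of these cell types in the mitotic difference was not tested.

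Markers of resident cells gave 0 calls by limma. All silica arrays lay below all control arrays for 6 of 6 alveolar type 1 markers and above them for 0, while 12.7% of all genes lay below. The median log2 fold change was 0.00 for alveolar type 2 cells, -0.27 for alveolar type 1 cells, -0.31 for airway epithelium, -0.15 for endothelium, -0.03 for fibroblasts and smooth muscle and -0.19 for erythroid precursors. At an unadjusted p under 0.05, 4 of 6 type 1 markers were lower and 1 of 8 fibroblast and smooth muscle markers, Col1a1, was higher. In addition 1 of 5 airway markers and 1 of 6 endothelial markers were lower, and no marker of type 2 cells or erythroid precursors passed that limit. Of all genes, 12.6% were higher and 7.24% lower at the same limit, and a single marker in lists this small was not read further.

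**Figure D5:**
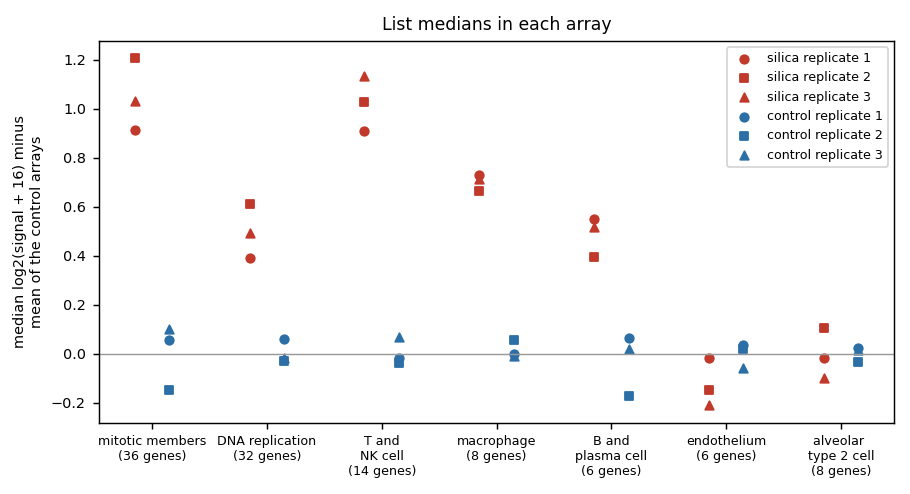
Median of each list in each array, as log2(signal + 16) minus the mean of the control arrays, with silica arrays (red) left of control arrays (blue) and 1 symbol per animal. The mitotic members lie between 0.91 and 1.21 in silica, T and NK cell markers between 0.91 and 1.13, and alveolar type 2 markers between -0.10 and 0.10.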

How the data were processed

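Lung RNA of 6 rats was hybridised as biotin-labelled cRNA, per the labels' protocols. The authors deposited 1 intensity per probe set and array, on a linear scale. The sources used here name neither the summarisation software nor the scaling. In the values, the mean after trimming 2% at each end was equal on all arrays. Of 31099 probe sets, 57 array controls were left out, and 20826 of the other 31042 had 1 gene in the platform annotation (symbols updated by identifier through RefSeq for 20758).

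Values were analysed as log2(signal + 16). The groups were set against each other in limma 3.58.1 under R 4.3.3 (lmFit and eBayes, no term but group, with 4 residual and 2.18 prior degrees of freedom), with Benjamini-Hochberg adjustment over 31042 probe sets at 0.05. The design text gives 3 rats per group, so p-values measure the spread between animals, whose number limits precision. The fit was tested on simulated data with known changes and with noise drawn independently for each probe set. That check does not cover spread shared between genes, and its results are not given here. An exact permutation of 3 against 3 cannot go below p = 0.1. Same-numbered arrays of the groups correlated at 0.092, 0.035 and 0.088 in their deviations, which was not taken as pairing.

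All members were named. In other cell cycle lists, genes were named for the smallest p (3 per list) or by a fixed choice, such as Wee1 and Pcna. Members and lists were chosen with earlier results of these data known. Alternatives were quantile normalization, median centring, leaving out the dimmer 50%, an intensity trend with robust spread, a replicate block, pseudocounts of 1 and 64, array weights, the RNA ratio as covariate, each array left out, and averaging the probe sets of each gene. Promoter windows came from RefSeq (GRCr8), 1 per gene.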

Additional observations from a re-analysis of the deposited data

Results flagged for a closer look

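The probe set annotated to both Ckap2, a spindle microtubule protein, and the pseudogene Ckap2-ps3 was outside the members and was looked at because its signal separated the groups. It had 135.5, 164.3 and 128.6 in silica and 38.6, 72.1 and 66.9 in control (log2 fold change 1.10 ± 0.21, limma adjusted p = 0.0816). Which of the 2 genes gave the signal cannot be read from it.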

How the results depend on the processing

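The 13 members that rose by limma, the median of 1.04, the 12 calls among 149 other cell cycle genes and the 335 calls over all probe sets were recomputed under 16 alternatives. All 13 kept a positive log2 fold change wherever they were tested; Ccna2, Melk, Pbk, Bub1 and Kif11 were not tested with the dimmer 50% left out. The counts of calls depended on the setting. With pseudocount 1, 2 members, 0 other cell cycle genes and 43 probe sets passed, and the median was 1.20. With pseudocount 64 these were 26, 25, 919 and 0.76. An intensity trend with robust spread gave 26, 34 and 1862 calls, and the mean of all probe sets gave 22, 23 and 560 (of genes). With the dimmer 50% left out, 14 of the 17 members kept passed, with 22 other cell cycle genes and 1675 probe sets. The RNA ratio as a covariate gave 0, 0 and 0. The replicate block gave 0, 0 and 1, with 33 members higher at an unadjusted p under 0.05, and same-numbered arrays correlated best with each other, at under 0.1. Leaving out 1 array gave 0 to 0 members, 0 to 0 other cell cycle genes and 0 to 12 probe sets. Kif23 turned to 0.067 with the mean of its probe sets and ranged from -0.18 to 0.050 (without silica replicate 2) with 1 array left out. Quantile normalization, median centring and array weights gave 12 members each. The causes of these shifts were not tested.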

Other observations

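Genes that act before mitosis, at the passage from G1 into S phase, gave 1 call among 15, while 1.55% of all genes rose. Ccne2, a cyclin E that activates Cdk2, rose, with 144.7, 167.1 and 144.2 in silica and 63.5, 54 and 44 in control (log2 fold change 1.27 ± 0.14, limma adjusted p = 0.0307). Its relative Ccne1 had 89, 100.1 and 85.8 in silica and 7.5, 38 and 39.3 in control (log2 fold change 1.38 ± 0.34, adjusted p = 0.135), and E2f8, an E2F factor that represses, had 1.08 ± 0.23 (adjusted p = 0.105). Ccnd1, cyclin D1, had 0.17 ± 0.13 (adjusted p = 0.560). The list had a median of 0.21.

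Of 11 CDK inhibitors and antiproliferative genes 0 passed by limma, with 2 higher and 2 lower at an unadjusted p under 0.05 and a median of 0.03. Of all genes, 12.6% were higher and 7.24% lower at that limit. Cdkn2b, p15, had 172.1, 215.1 and 255.2 in silica and 407.3, 307.8 and 383.3 in control, all silica animals below all controls (log2 fold change -0.74 ± 0.18, adjusted p = 0.128). Cdkn1a, p21, had 1076, 1038.9 and 942.1 in silica and 719.4, 782.2 and 802.5 in control (log2 fold change 0.40 ± 0.10, adjusted p = 0.148), and Cdkn2a had 0.75 ± 0.21 (adjusted p = 0.164). Cdkn1b, p27, had -0.11 ± 0.17 (adjusted p = 0.788).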
